A study of Homo sapiens with 12 samples.

Results

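The SOXF genes SOX7, SOX17 and SOX18 encode the 3 transcription factors of the F group of the SOX family. They were taken by symbol from a table of FPKM values, in which they are 3 of 56593 distinct gene symbols, each on 1 line, and all 3 passed the filter of at least 1 FPKM in at least 3 libraries. FPKM scales the fragments of a gene by its transcript length and by the library's mapped fragments, so that levels of different genes can be compared per length. RNA-seq had been performed on undifferentiated H1 cells, a human embryonic stem cell line in wide use, and on 3 populations derived from H1 during hematopoietic differentiation, with 3 libraries each. Differentiation was started with activin A and BMP4 and continued with VEGF and bFGF in a custom mTeSR1 medium. On day 2 mesoderm cells with the apelin receptor were collected (APLNR+ cells), on day 5 hemogenic endothelial progenitors with both CD31 and CD34 (CD31+CD34+ HEPs), and on day 8 hematopoietic progenitors with CD43 (CD43+ HPCs). All cells came from 1 line without genetic modification named in the labels, and each population was collected on 1 day, so that population and day cannot be told apart. Nothing in the labels says that the 3 libraries of a population came from separate cultures, and p-values then measure the spread between these libraries, which may be technical.

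SOXF proteins bind DNA through a high mobility group box and activate transcription through a domain near their C terminus. They act in endothelial cells, where the members can partly stand in for each other in vessel formation and in the specification of arterial and lymphatic endothelium. SOX17 is also a regulator of definitive endoderm, and in the embryo it is active in the hemogenic endothelium from which the first blood stem cells bud, whereas SOX7 and SOX18 are best known from early endothelial and blood precursors and from vessels. Blood formation from hemogenic endothelium is driven by RUNX1, and SOXF genes are known to be turned down as blood cells form. These roles are background to the values below.

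The libraries held between 12297 and 13060 symbols at 1 FPKM or more. Absolute depth is unknown, since FPKM carries no read totals. Relative depth ranged from 0.559 to 1.26 times that of CD43+ replicate 3, and replicate 1 was the shallowest library of each population. Genes of small RNAs took between 10.4% and 66.2% of the summed FPKM of a library. The labels were checked with marker genes. The summed FPKM of POU5F1, NANOG and SOX2 was 1061 to 1122 in H1 and still 346 to 387 in APLNR+ cells. It was 77.2 to 98.2 in HEPs and 12.7 to 14.9 in HPCs. The mesoderm markers APLNR, T and MESP1 summed to 387 to 429 in APLNR+ cells but also to 383 to 431 in HEPs. APLNR made up most of this sum in both, while MESP1 averaged 26.2 FPKM in APLNR+ cells and 1.08 in HEPs. The 4 endothelial markers PECAM1, CDH5, TEK and TIE1 summed to 283 to 334 in CD31+CD34+ HEPs and 218 to 271 in CD43+ HPCs. Their sum was 4.42 to 9.82 in the other populations. The blood markers SPN, PTPRC and GATA1 summed to 109 to 156 in CD43+ HPCs, although PTPRC, the pan-leukocyte antigen CD45, averaged 0.197 there. The part of the endothelial markers of the CD43+ HPCs in the SOXF values of that population was not tested. In such sorted bulk samples, fewer cells of a type and less RNA per cell cannot be told apart.

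The SOXF genes rose in sequence. SOX17 rose first, in APLNR+ mesoderm cells, while SOX7 and SOX18 rose in CD31+CD34+ HEPs. All 3 had their highest mean in HEPs. The summed FPKM of the mural markers MYH11, PDGFRB and RGS5 was also highest there, at 212 to 302 against 22.4 to 72.5 in the other populations, whereas the whole list of 7 mural and smooth muscle markers summed to 546 to 588 in HEPs and 489 to 612 in APLNR+ cells. RGS5, at 250 FPKM in HEPs, made up most of the sum of MYH11, PDGFRB and RGS5, while MYH11 averaged 0.00453 and PDGFRB 13.2. Its symbol was on 2 lines, of which the higher was used. In the whole list TAGLN was higher, at 274 FPKM in HEPs. Of the 6 such markers tested, 3 were raised and 0 lowered at the step to HEPs, where 12.5% of all genes were raised and 17.1% lowered. At the step to HPCs 1 was raised and 3 were lowered, where 5.58% of all genes were raised and 8.79% lowered. The part of mural cells in the SOXF values was not tested. SOX17 and SOX7 then fell in CD43+ HPCs, with SOX17 losing the larger share of its level.

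SOX17 stood at 0.155, 0.00473 and 0.0270 FPKM in the H1 libraries (replicates 1, 2 and 3). It reached 19.6, 16.5 and 16.3 FPKM in APLNR+ mesoderm cells. Every APLNR+ library lay far above every H1 library. In CD31+CD34+ HEPs SOX17 stood at 28.6, 23.4 and 20.6 FPKM, and in CD43+ HPCs at 1.49, 1.58 and 1.13 FPKM. The 4 populations did not overlap, and HEPs were highest, followed by mesoderm cells, HPCs and H1. The means were 0.0624 ± 0.081 FPKM in H1, 17.5 ± 1.9 in APLNR+ cells, 24.2 ± 4.1 in HEPs and 1.40 ± 0.24 in HPCs (SD, n = 3).

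The step from H1 to APLNR+ cells raised SOX17 by 4.12 ± 0.13 on the log2(FPKM + 1) scale (SE, limma adjusted p 1.51e-10), a scale that understates changes of genes at low levels. The ratio of the means was 280-fold, over an H1 level that differed widely between libraries. Calls required a limma adjusted p under 0.05 together with a 2-fold change or more. SOX17 was the 1 member of 3 called raised at this step, at which 8.3% of the 14840 genes tested were raised. It did not reach 1 FPKM in any H1 library and passed the filter only through later populations. No fall of SOX17 could therefore have been called at this step. A higher change than that of SOX17 was found for 0.499% of the genes.

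From APLNR+ cells to HEPs SOX17 was 1.38-fold higher. The difference of 0.44 ± 0.13 (SE, log2 scale) had a limma adjusted p of 0.0100 and did not reach the 2-fold minimum. Without a minimum change, 73.8% of all genes passed that adjusted p at this step. The ranges were adjacent, with 19.6 FPKM as the highest mesoderm value and 20.6 as the lowest HEP value, and the difference depended on the scaling of the libraries. Its limma adjusted p was 0.280 when the libraries were rescaled over protein-coding genes, a setting chosen after the data were seen. The difference was 0.93 after rescaling to an equal FPKM sum, and with replicate number as a block its limma adjusted p was 0.00117. Because the difference stayed under 2-fold, SOX17 at these neighbouring stages was not called different.

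From HEPs to HPCs SOX17 fell by 3.38 ± 0.13 on the log2 scale (SE, limma adjusted p 1.53e-09), or 17.3-fold. The HPCs kept 5.79% of the HEP level, between 3.95% and 7.67% over all pairs of libraries. A lower change was found for 0.175% of the genes tested. SOX17 nevertheless stayed above its level in undifferentiated cells, by 1.17 (limma adjusted p 4.97e-06).

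SOX7 stood at 0.0330, 0.0482 and 0.0639 FPKM in H1 and at 0.158, 0.0635 and 0.112 FPKM in APLNR+ cells. These ranges overlapped, and the difference of 0.08 ± 0.09 (SE, log2 scale) had a limma adjusted p of 0.450. Unlike SOX17, SOX7 was therefore barely detected in mesoderm cells. It reached 13.2, 15.1 and 13.8 FPKM in HEPs, and 2.51, 2.99 and 2.96 FPKM in HPCs. The HEP libraries were the highest and close to each other, and the HPC libraries lay between them and the libraries of the earlier stages without overlap.

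SOX7 rose by 3.76 ± 0.09 on the log2 scale from APLNR+ cells to HEPs (SE, limma adjusted p 1.78e-11). The means of 0.111 ± 0.047 and 14.02 ± 0.991 FPKM (SD, n = 3) gave a ratio of 126-fold. SOX7 and SOX18 were the 2 members of 3 called raised at this step, beside 12.5% of all genes tested. Neither reached 1 FPKM in any H1 or APLNR+ library, so both passed the filter only through later populations. No fall of either could therefore have been called at this step. A higher change than that of SOX7 was found for 0.445% of the genes. SOX7 belonged to the genes followed by the study as stage markers in this system, so its rise here is not independent evidence for that use.

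From HEPs to HPCs SOX7 fell by 1.98 ± 0.09 on the log2 scale (SE, limma adjusted p 4.53e-09), to a mean of 2.82 ± 0.27 FPKM (SD, n = 3). That was 20.1% of the HEP level, with 16.6% to 22.7% over all pairs of libraries. SOX7 and SOX17 were the 2 members of 3 called lowered, where 8.79% of all genes were lowered. In the annotation SOX7 overlaps PINX1 on the same strand and the antisense gene AC105001.1, and whether reads were counted by strand is not given in the sources used here. PINX1, a telomerase inhibitor gene, averaged 41.3 FPKM in H1, where SOX7 stayed under 0.07 FPKM, and 27.6 FPKM in HEPs.

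SOX18 had the lowest peak of the 3 genes. It stood at 0.0201, 0.00615 and 0.0117 FPKM in H1 and at 0.186, 0.114 and 0.202 FPKM in APLNR+ cells. The APLNR+ libraries were all higher, but at levels so low that the difference of 0.20 ± 0.12 (SE, log2 scale) had a limma adjusted p of 0.158. With a pseudocount of 0.1 in place of 1 this difference was 1.23 and was called (limma adjusted p 0.000795). SOX18 reached 3.42, 3.05 and 3.13 FPKM in HEPs, with 2.08, 1.87 and 1.16 FPKM in HPCs. The HEP libraries were highest and did not overlap with those of HPCs, among which replicate 3 was low.

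SOX18 rose by 1.85 ± 0.12 on the log2 scale from APLNR+ cells to HEPs (SE, limma adjusted p 4.78e-08), a ratio of means of 19.1-fold. From HEPs to HPCs the difference was -0.65 ± 0.12 (SE, limma adjusted p 0.000567) and under 2-fold, so it was not called. Without a minimum change, 53.6% of all genes passed that adjusted p here. HPCs kept 53.2% of the HEP level of SOX18, with 33.8% to 68.2% over all pairs of libraries. A lower change than that of SOX18 was found for 16.4% of all genes tested, far more than for SOX17 or SOX7. When the libraries were rescaled to the same summed FPKM, the limma adjusted p of this difference was 0.125.

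**Figure D1:**
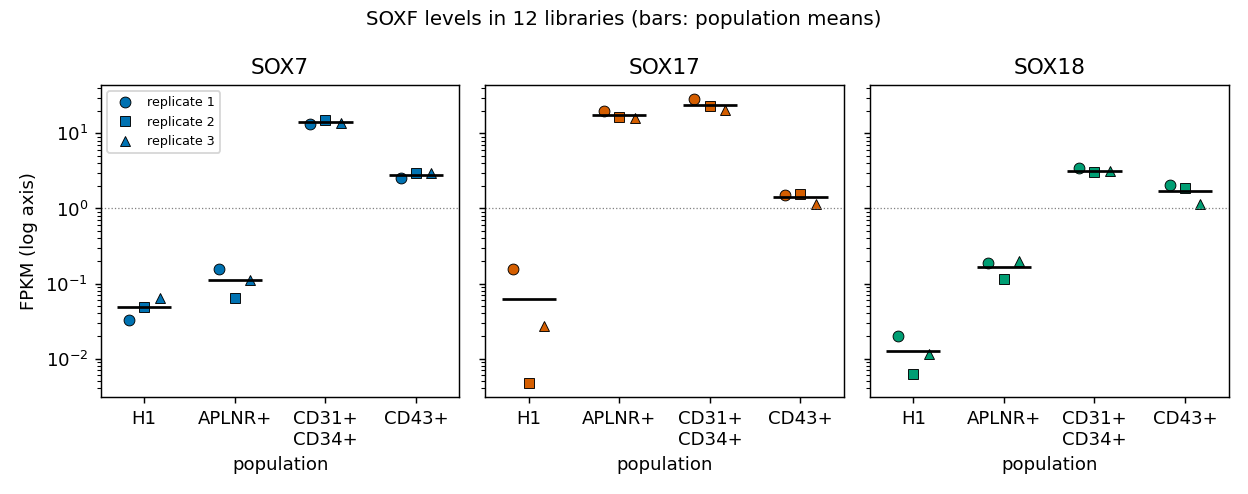
FPKM (log axis) of SOX7, SOX17 and SOX18 in each of 12 libraries, by population, with circles, squares and triangles for replicates 1, 2 and 3, black bars for the mean of 3 libraries and a dotted line at 1 FPKM. SOX17 is above 16 FPKM in every APLNR+ library, where SOX7 and SOX18 are under 0.3 FPKM, and all 3 genes have their highest mean in CD31+CD34+ cells.

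Compared with undifferentiated H1 cells, all 3 members were called raised in HEPs, by 3.84 for SOX7, 4.56 for SOX17 and 2.05 for SOX18 on the log2 scale, where 16.9% of all genes tested were raised. They were also called raised in HPCs against H1, by 1.86, 1.17 and 1.40 in the same order, where 14.6% of all genes were raised. These comparisons share the H1 libraries. No member reached 1 FPKM in any H1 library, so all 3 passed the filter only through later populations. A fall against H1 could therefore not have been called. Against APLNR+ cells, HPCs had more SOX7 (1.78) and more SOX18 (1.19), both called, at a background of 14.1% of genes raised. For both a fall could not have been called, since neither reached 1 FPKM in any APLNR+ library. SOX17, by contrast, fell by 2.94 on the log2 scale between these populations, where 19.4% of genes were lowered. At the consecutive steps the libraries did not overlap for 2, 3 and 3 of the 3 members, against 66%, 75.7% and 58% of all genes tested.

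Each level was also tested across the 4 populations by an exact permutation of 12 libraries into groups of 3, which has 369600 arrangements. The exact p was 6.49e-05 for SOX17 and SOX18, the smallest value that these permutations can give, and 0.00013 for SOX7. After Benjamini-Hochberg adjustment over 6 values (the 3 genes and the 3 differences between them) these permutation p-values were 7.79e-05 and 0.00013. For 3 libraries against 3, an exact two-sided permutation test has 0.1 as its smallest p, and it gave 0.1 for every consecutive step of each member except SOX7 from H1 to APLNR+ cells, where it gave 0.2.

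Whether the members followed different courses was tested within libraries. With 1 FPKM added to each value the scale of a library cancels only in part, and least for a member near 0. SOX17 exceeded SOX7 by 4.05 ± 0.10 on the log2(FPKM + 1) scale in APLNR+ cells and by 0.74 ± 0.29 in HEPs, and it was below SOX7 in HPCs, at -0.67 ± 0.20 (SD, n = 3). The order of these genes was therefore opposite in HEPs and HPCs, in every library. SOX17 minus SOX18 was 3.98 ± 0.14, 2.57 ± 0.18 and -0.16 ± 0.14 in the same populations. SOX7 minus SOX18 was -0.07 ± 0.04 in APLNR+ cells, where both were low, 1.84 ± 0.16 in HEPs and 0.51 ± 0.34 in HPCs. For each of these 3 differences the exact permutation p across the 4 populations was 6.49e-05 (7.79e-05 adjusted over 6 values). Each consecutive step in a difference had an exact permutation p of 0.1, the smallest that 3 against 3 libraries allow.

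The make-up of SOXF expression changed accordingly. The summed level of the 3 genes averaged 17.8 FPKM in APLNR+ cells, 41.4 in HEPs and 5.92 in HPCs. SOX17 held 98.4% ± 0.439 of that sum in APLNR+ cells (SD, n = 3). In HEPs it held 58.2% ± 4.53, beside 34.1% ± 4.32 for SOX7 and 7.75% ± 0.520 for SOX18. In HPCs SOX7 held 48.0% ± 7.69, SOX18 28.4% ± 6.08 and SOX17 23.5% ± 1.74. SOX17 was thus the leading SOXF gene in each of the 3 HEP libraries and the last in each of the 3 HPC libraries. In HPC replicate 3, however, SOX17 and SOX18 were nearly level, at 21.5% and 22.1%. In H1 the sum was only 0.123 FPKM on average, and the shares differed so much between libraries (8.01% to 74.5% for SOX17) that no order can be read from them.

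**Figure D2:**
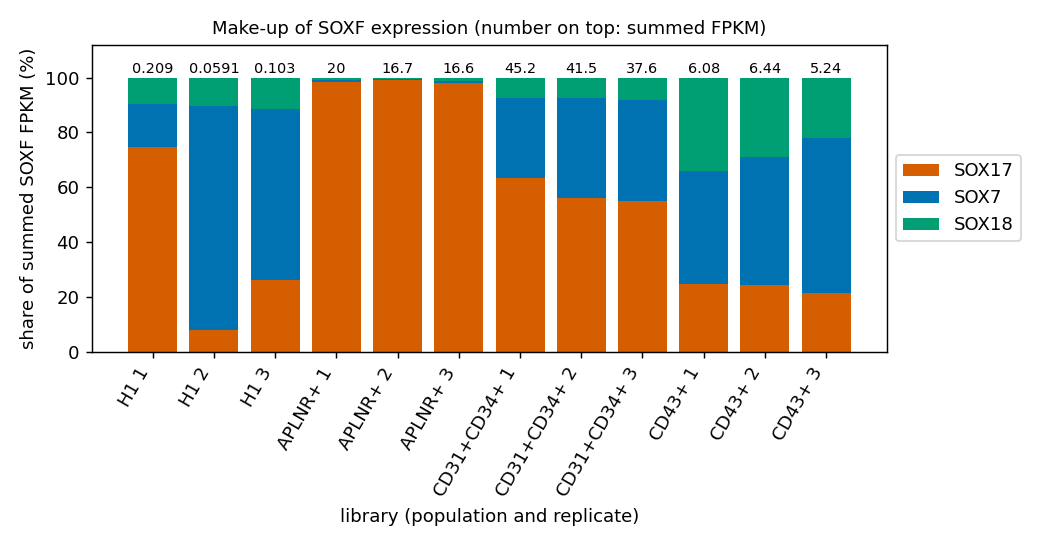
Share of the summed SOXF FPKM (%) held by SOX17, SOX7 and SOX18 in each of 12 libraries (stacked bars), with the summed FPKM above each bar. SOX17 fills 98.1% to 98.9% of the bar in APLNR+ cells and 21.5% to 24.6% in CD43+ cells, where SOX7 is the largest segment in all 3 libraries.

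Over the 12 libraries the log2 levels of SOX7 and SOX18 had a Pearson r of 0.968 (Spearman rho 0.909). The values for SOX7 and SOX17 were 0.476 (rho 0.713), and for SOX17 and SOX18 0.435 (rho 0.776). These correlations describe the course over 4 populations rather than 12 independent points, since libraries of a population share their stage. In the APLNR+ libraries SOX17 alone of the 3 was high.

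The level kept in HPCs was set beside that of 13 endothelial markers. HPCs kept between 23.8% (EGFL7, a secreted endothelial factor) and 971% (EMCN, an endothelial sialomucin at 0.396 FPKM in HEPs) of the HEP level of these markers. SOX17 and SOX7 kept less than each of the 13, whereas SOX18, at 53.2%, lay within their range. CDH5, which encodes VE-cadherin, kept 35.0%, KDR, the main VEGF receptor of endothelium, 40.0%, and TEK, the angiopoietin receptor, 42.2%. TIE1 kept 89.6%, and PECAM1, whose protein CD31 was used to collect the HEPs, stood at 174%. Among the 13 markers, 6 were called lowered and 2 raised at this step, where 8.79% of all genes were lowered and 5.58% raised. EMCN, among the raised, reached 1 FPKM in the CD43+ libraries alone and so passed the filter only through them. These shares are a description, and the difference between members and markers was not tested.

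**Figure D3:**
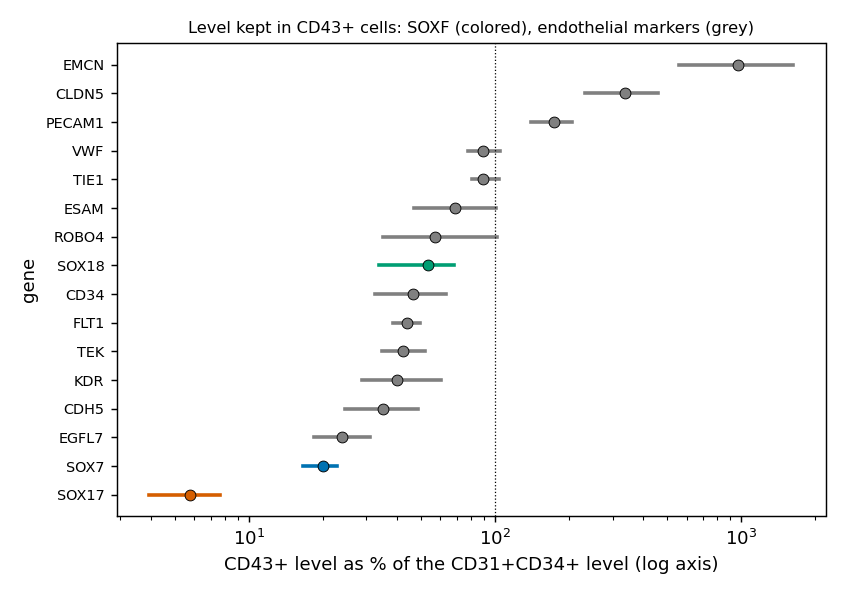
Mean level in CD43+ cells as a percentage of the mean in CD31+CD34+ cells (log axis) for the SOXF genes (colored) and 13 endothelial markers (grey), with lines from the lowest to the highest percentage over all pairs of libraries and a dotted line at 100%. SOX17 (5.79%) and SOX7 (20.1%) are the lowest points, and SOX18 (53.2%) lies among the endothelial markers.

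Within the SOX family the share of SOXB1 genes was lower and that of SOXF genes higher after H1. Of 19 autosomal and X-linked SOX genes, 12 passed the filter. SOX2, a core factor of pluripotent cells, averaged 43.0 FPKM in H1 and 0.269 in APLNR+ cells, and fell by 5.11 on the log2 scale (limma adjusted p 1.90e-12). The SOXF genes held 0.113% of the summed FPKM of the 19 genes in H1, 30.4% ± 2.37 in APLNR+ cells, 47.4% ± 1.66 in HEPs and 18.6% ± 1.83 in HPCs (SD, n = 3). The SOXB1 genes SOX1, SOX2 and SOX3 held 43.2% in H1 and under 1% in the later populations. The SOXC genes SOX4, SOX11 and SOX12 held 36.5%, 43.6%, 25.3% and 49.7% in the order of differentiation, more than the SOXF genes except in HEPs.

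By mean level SOX17 ranked 13th of 19 in H1, 1st in APLNR+ cells, 1st in HEPs and 8th in HPCs. SOX7 moved from 14th and 16th in the first populations to 3rd in HEPs and 5th in HPCs. SOX18 ranked 18th, 12th, 7th and 7th. Unlike the SOXF genes, SOX4, a SOXC gene of progenitor cells, was highest in H1 and declined, at 31.2, 16.0, 14.1 and 9.93 FPKM in the order of differentiation. It was not called at any consecutive step, although HPCs had 31.9% of its H1 level.

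Among the 9 other SOX genes tested, 1 was raised and 3 were lowered from H1 to APLNR+ cells, where 8.3% of all genes were raised and 7.62% lowered. SOX5 was raised by 1.23, while SOX3 and SOX8 fell by 1.82 and by 1.29 beside SOX2. SOX2 and SOX3 reached 1 FPKM in the H1 libraries alone. They passed the filter only through the population where they were high, so their direction was set by the filter. From APLNR+ cells to HEPs SOX8 was raised by 1.43 and SOX11, a SOXC gene of neural progenitors, fell by 1.01, where 12.5% of all genes were raised and 17.1% lowered. From HEPs to HPCs SOX13 fell by 1.40 and SOX15 fell by 1.32, and 0 of the 9 were raised, where 8.79% of all genes were lowered and 5.58% raised. SOX12 was not called at any of these steps. The SOXF genes were therefore not the only SOX genes that fell in HPCs, though SOX17 and SOX7 had larger changes than either of these. SOX1, SOX14, SOX21, SOX6, SOX9, SOX10 and SOX30 did not pass the filter.

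**Figure D4:**
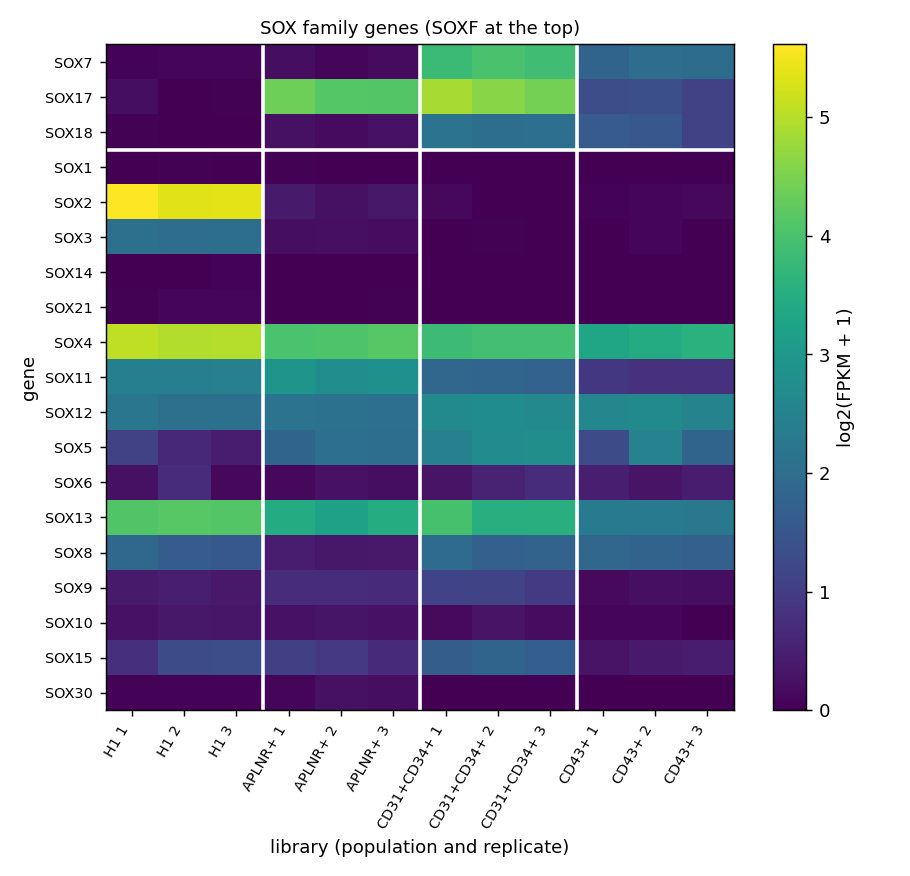
Level of 19 SOX genes, as log2(FPKM + 1) by color, in each of 12 libraries ordered by population and replicate, with the SOXF genes in the upper rows above the white line. SOX2 is bright in the 3 H1 libraries alone, SOX17 in the APLNR+ and CD31+CD34+ libraries, and SOX7 in the CD31+CD34+ libraries.

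A list of 18 genes linked to SOXF proteins as targets or pathway partners was drawn up from general knowledge, and the filter kept 12 of its genes. Of these 12, 2 were raised and 0 lowered from H1 to APLNR+ cells, where SOX17 alone was high and 8.3% of all genes were raised. The list median was 0.14 on the log2 scale against -0.12 for all genes. The 2 were CXCR4, the CXCL12 receptor (2.03), and KDR (1.22). From APLNR+ cells to HEPs, where SOX7 and SOX18 rose, 10 of 12 were raised and 0 lowered, with a median of 2.00 against -0.01 for all genes. Of all genes, 12.5% were raised and 17.1% lowered at this step. Of the 13 endothelial markers, 12 were raised and 0 lowered there, with a median of 3.40. They are no independent comparison, since CDH5, KDR, TEK and CLDN5 are on both lists and were all raised. Outside these genes, TIE1 (6.06) and PECAM1 (5.68) were among the raised markers, and EMCN (0.46) was not called. A gain at this step was thus not particular to the linked genes. From HEPs to HPCs, where 5.58% of all genes were raised and 8.79% lowered, 3 were raised and 6 lowered, with a median of -0.99 against -0.00.

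CDH5 was low where SOX17 alone was high. It stood at 0.105, 0.0387 and 0.0332 FPKM in APLNR+ cells, at 79.1, 108 and 103 in HEPs and at 26.5, 38.4 and 36.7 in HPCs. The libraries of these populations did not overlap. CDH5 rose by 6.52 (limma adjusted p 1.48e-11) and then fell by 1.49 (limma adjusted p 5.03e-06). GJA4, the arterial gap junction protein connexin 37, rose by 3.46, and TEK rose by 3.40 at the step to HEPs.

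The arterial Notch ligand DLL4 took another course from the SOXF genes in HPCs. It averaged 0.275 FPKM in APLNR+ cells, 9.36 in HEPs and 26.3 in HPCs, and it was raised at both steps, by 3.03 and by 1.40 (limma adjusted p 3.95e-07 for the latter). EFNB2, the arterial ephrin, was raised from HEPs to HPCs by 1.39, while its venous receptor EPHB4 fell by 1.39 on the log2 scale. LAMA1, a laminin chain of basement membranes and a listed SOX7 and SOX17 target, averaged 27.8 FPKM in APLNR+ cells and 17.1 in HEPs, and fell by 2.04 in HPCs. Of the 4 lymphatic markers 2 passed the filter. At the step to HEPs 1 of these 2 was raised and 0 lowered, where 12.5% of all genes were raised. This was FLT4, which rose by 3.69, from 0.820 to 22.4 FPKM, while PDPN was not called (0.07). PROX1, the lymphatic regulator downstream of SOX18, did not pass the filter and averaged 0.172 FPKM in APLNR+ cells and 0.798 in HEPs.

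Transcriptional regulators and partners of endothelial cells were listed as 14 genes, of which 13 passed the filter. From H1 to APLNR+ cells 2 were raised and 0 lowered, namely GATA2 (2.42) and FOXC1 (1.17), where 8.3% of all genes were raised and 7.62% lowered. FOXC1 reached 1 FPKM in the APLNR+ libraries alone, so it passed the filter only through them. From APLNR+ cells to HEPs 7 were raised and 1 lowered, with a median of 1.57 against -0.01 for all genes, of which 12.5% were raised and 17.1% lowered. TAL1, LMO2 and FLI1, members of the shared circuit of endothelial and blood precursors, rose by 6.34, 5.98 and 6.23, and ERG, an endothelial ETS factor, rose by 4.84. The lowered gene was RBPJ, the DNA-binding partner of Notch, at -2.86. It has near-identical copies in the genome that may share its reads, so its value is uncertain.

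From HEPs to HPCs 1 of these 13 regulators was raised and 2 were lowered, where 5.58% of all genes were raised and 8.79% lowered. For so few genes these counts are near those shares. ETV2, the ETS factor that starts the endothelial program, stood at 6.28, 3.88 and 3.67 FPKM in HEPs and at 0.658, 0.419 and 1.16 FPKM in HPCs. It fell by 1.68, and ERG fell by 1.47, at the step where SOX7 and SOX17 were also lowered. MEF2C was raised by 1.46. FLI1, TAL1 and LMO2 were not called at this step, with values of -0.30, -0.35 and 0.69.

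Most of the genes listed as endothelial-to-blood factors were raised at the steps to HEPs and to HPCs. The list also holds lineage factors, and GATA1, KLF1, GFI1B and MYB are on the list of blood markers too. Their rise in HPCs is therefore not separate from that of the blood markers. All 8 listed genes passed the filter, and 1 was raised from H1 to APLNR+ cells, 6 from APLNR+ cells to HEPs and 6 from HEPs to HPCs, with 0 lowered at each of these steps. Of all genes tested, 8.3%, 12.5% and 5.58% were raised at these steps. CBFB, the partner of RUNX1, was not called, with -0.47 at the step to HEPs and -0.85 at the step to HPCs. RUNX1 averaged 0.130, 1.95, 9.29 and 37.9 FPKM in the order of differentiation, and it was raised at each step by 1.38, 1.80 and 1.92. GFI1 and GFI1B, the repressors through which RUNX1 shuts down endothelial genes, rose by 4.16 and 4.52 at the step to HEPs, where all 3 SOXF genes had their highest level. At the step to HPCs GATA1, the erythroid and megakaryocytic regulator, rose by 4.34, SPI1, the myeloid factor PU.1, by 3.23 and MYB by 2.54. GFI1 was not called there, with a value of -0.90 (limma adjusted p 0.000121, under 2-fold), and SPI1 was not called at the step to HEPs (0.50). SPI1 reached 1 FPKM in the CD43+ libraries alone, so it passed the filter only through them.

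**Figure D5:**
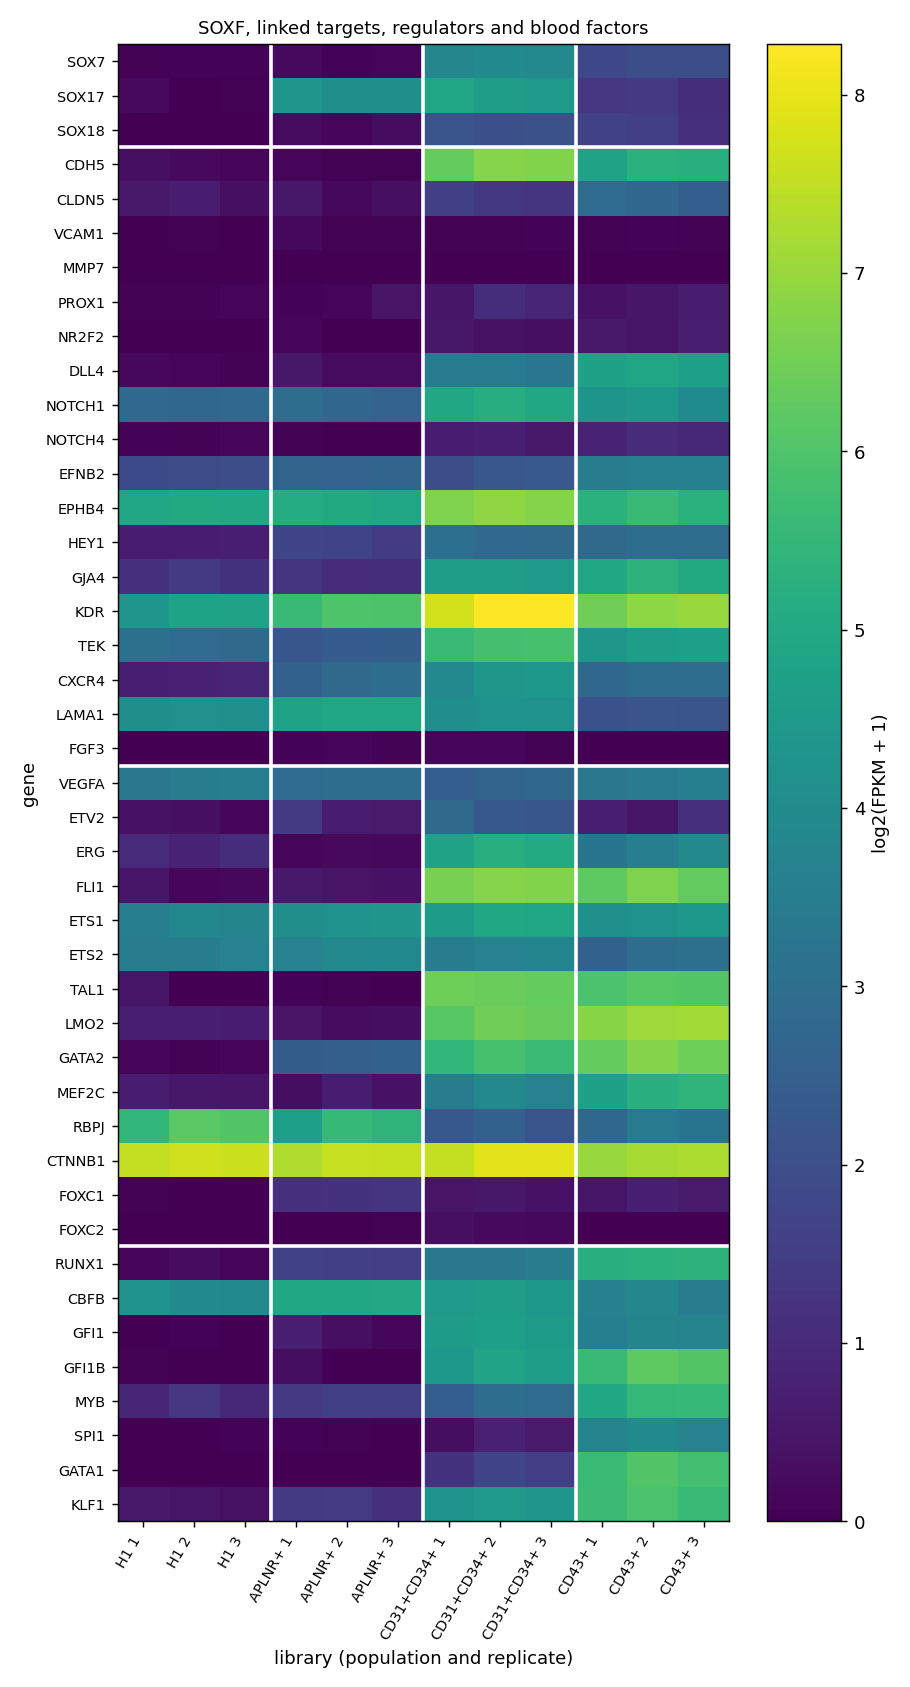
Level, as log2(FPKM + 1) by color, in each of 12 libraries for the SOXF genes and, below successive white lines, 18 linked targets, 14 endothelial regulators and partners and 8 endothelial-to-blood factors. CDH5 is dark in the APLNR+ libraries although SOX17 is high there, 10 linked genes brighten in CD31+CD34+ cells, and RUNX1, GATA1 and MYB are brightest in CD43+ cells.

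Since SOX17 is also an endoderm gene, endoderm markers were examined in the APLNR+ cells and in HEPs. Of the listed genes, 8 were taken as defining, namely FOXA1, FOXA2, FOXA3, HNF4A, AFP, TTR, APOA1 and APOA2, a choice that was not tested. Their summed FPKM was 8.01 to 10.2 in APLNR+ cells against 15.3 to 15.6 in H1. The H1 sum was mostly AFP (8.56) and FOXA3 (6.32), which averaged 0.990 and 3.61 in APLNR+ cells. The other 6 had higher means in APLNR+ cells than in H1, among them APOA1 (0.322 and 1.40 in H1 and APLNR+ cells), APOA2 (0.170 and 2.28) and HNF4A (0.00247 and 0.102). FOXA2, the pioneer factor of endoderm, stood at 0.189, 0.379 and 0.607 FPKM in APLNR+ cells and at 0.795, 0.971 and 0.932 in HEPs. Those levels were above the H1 libraries and far below SOX17 in the same libraries. Of the 13 endoderm list genes that passed the filter, 7 were raised and 1 was lowered from H1 to APLNR+ cells. Of all genes, 8.3% were raised and 7.62% lowered at this step. The raised genes were CER1, EOMES, GATA6, GSC, GATA4 and CXCR4, which the early mesoderm expresses too (9.68, 5.75, 5.38, 4.38, 3.95 and 2.03), and the defining marker APOA2 (1.43, limma adjusted p 0.00483). The lowered gene was AFP, at -2.32. GSC reached 1 FPKM in the APLNR+ libraries alone, so it passed the filter only through them. Unlike the defining markers, the whole list of 15 endoderm genes summed to 2314 to 2453 FPKM in APLNR+ cells against 17.8 to 18.9 in H1. Most of this was CER1, which averaged 2238 FPKM in APLNR+ cells. The part of endoderm cells in the SOX17 values of the APLNR+ libraries was not tested.

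The genes most like each member were ranked by Pearson r of log2(FPKM + 1) over the 12 libraries, among 7669 genes with a population mean of at least 10 FPKM. For SOX7 these were ITGA10 (0.997), GSN (0.996), PCDH12 (0.996), EXOC3L2 (0.994) and ATG4B (0.993). PCDH12, an endothelial protocadherin, averaged 0.0337 FPKM in APLNR+ cells, 14.6 in HEPs and 3.66 in HPCs, near the levels of SOX7 itself at each stage. In all, 255 genes had an r over 0.95 with SOX7.

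For SOX17 they included EPHA2 (0.996), ANXA6 (0.996), HLX (0.990) and PFKFB3 (0.988). HLX, a homeobox gene, averaged 0.138 FPKM in H1, 12.9 in APLNR+ cells, 14.7 in HEPs and 1.87 in HPCs. The course of SOX17 had fewer close neighbours, with 51 genes over 0.95. For SOX18 the genes were VASH1 (0.992), UBASH3B (0.991), OVCA2 (0.990), MAP3K11 (0.990) and GNG11 (0.989), and 331 genes were over 0.95. VASH1, an angiogenesis inhibitor made by endothelial cells, averaged 2.20 FPKM in APLNR+ cells, 62.7 in HEPs and 22.2 in HPCs. The 12 libraries form 4 stages, and any gene with the same order of stages scores high, so these correlations describe likeness of course alone.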

How the data were processed

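RNA-seq data of H1, APLNR+, CD31+CD34+ and CD43+ cells were used (3 libraries each), grouped by sample title. The authors deposited 1 table of FPKM values. The submitters' processing notes name BWA, Bowtie, RSEM and hg19, and the annotation, the use of strand and any scaling between libraries are not given in the sources used here. Of 58366 lines 1 held text and was left out. Of the 345 symbols listed more than once, the entry highest on average was used. Overlapping genes were taken from GENCODE release 29 by symbol. FPKM values are not counts, and no count model was run.

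Values were transformed as log2(FPKM + 1), and 14840 genes reaching 1 FPKM in at least 3 libraries were tested. The model was fitted to all 12 libraries with limma 3.58.1 under R 4.3.3 (lmFit, contrasts.fit, eBayes with trend) for 6 comparisons, without covariates, with Benjamini-Hochberg adjustment over all genes of a comparison. The steps were tested on simulated data. Single values were tested by exact permutation with scipy 1.17.1 and numpy 2.4.6 in Python 3.11.15, using pandas 2.3.3 and matplotlib 3.10.9. Absolute depth is unknown, and the 3 libraries per population limit the precision.

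The members, gene lists and alternatives were chosen with earlier results of these data known. Named genes were the members, the SOX genes tested, the defining markers, at most 4 called genes with the largest change per list and step, and the 5 genes most correlated with each member. FLI1, TAL1, LMO2 and GFI1 at the last step, SPI1 at the step to HEPs, CBFB, EFNB2, GATA4 and CXCR4 among the endoderm markers, RBPJ and the overlapping PINX1 were named after their values were seen. Alternatives were other pseudocounts, filters, scalings, fits and minimum changes, a replicate block and leaving out each library. A marker and a gene correlated with SOX17 are not reported here.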

Additional observations from a re-analysis of the deposited data

How the results depend on the processing

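The 18 changes of the SOXF genes had the same direction and call in 427 of 438 alternatives. Under quantile normalization SOX7 from H1 to APLNR+ cells was -0.018 in place of 0.08. At a minimum of 4-fold the calls of SOX7 from HEPs to HPCs (-1.98), H1 to HPCs (1.86) and APLNR+ cells to HPCs (1.78), of SOX17 from H1 to HPCs (1.17) and of SOX18 from APLNR+ cells to HEPs (1.85), H1 to HPCs (1.40) and APLNR+ cells to HPCs (1.19) were lost. With no minimum change SOX17 from APLNR+ cells to HEPs (0.44) and SOX18 from HEPs to HPCs (-0.65) were called, and with a pseudocount of 0.1 SOX18 from H1 to APLNR+ cells (1.23). SOX17 from APLNR+ cells to HEPs was 0.32 to 0.54 when single libraries were left out, and 0.93 after rescaling to an equal FPKM sum. A mean of at least 5 FPKM removed SOX7 and SOX18, which then had no value. With replicate number as a block, no call of a member changed, and SOX17 from APLNR+ cells to HEPs had a limma adjusted p of 0.00117 (0.44). Deviations of same-numbered libraries had r from -0.02 to 0.43, over 0.1 in 12 of 18 pairs. Since not every pair was over 0.1 and no label ties the numbers to a shared day, the block was not used in the report. The 6 pairs of replicate 1 libraries had r of 0.20 to 0.43, and replicate 1 with other numbers -0.40 to -0.06, so the shallowest libraries of the populations deviated together. Rescaling over protein-coding genes was chosen after the data were seen. The median change of all genes at the 3 steps, -0.12, -0.01 and -0.00, became 0.12, 0.37 and 0.14 after rescaling to an equal sum and 0.07, -0.23 and -0.10 after rescaling over protein-coding genes. At the step to HEPs, 1861 genes were raised and 2539 lowered, against 3654 and 1343 after rescaling to an equal sum and 1716 and 4256 after rescaling over protein-coding genes. The splits of 1232 and 1131 at the step to APLNR+ cells and of 828 and 1305 at the step to HPCs became 1377 and 533, and 1072 and 1097, with an equal sum, and 2286 and 1211, and 952 and 2124, over protein-coding genes.

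Counts of list genes moved as follows, with raised before lowered, and steps 1, 2 and 3 for APLNR+ cells, HEPs and HPCs against the stage before. With no minimum change, SOX genes beside the members counted 2 and 5 at step 1, 5 and 3 at step 2 and 5 lowered at step 3. Linked targets counted 5 and 1 at step 1 and 2 lowered at step 2. Regulators counted 4 and 4, then 3 lowered, then 5 and 6. Blood factors counted 4 raised, then 1 lowered, then 2 lowered. At 4-fold, SOX genes counted 0 and 1, 0 and 0, and 0 lowered at the 3 steps, linked targets 1, 6 and 0 raised and 1 lowered at step 3, regulators 1 raised at step 1 and 0 and 0 at step 3, and blood factors 0, 3 and 3 raised. With a pseudocount of 0.1, SOX genes counted 2 and 3 at step 2, linked targets 4 raised at step 1, regulators 1 lowered at step 1 and 2 at step 2, and blood factors 3 raised at step 1. With a mean of at least 5 FPKM, SOX genes counted 0 and 1, 0 and 0, and 1 lowered, and regulators 1 raised at step 1 and 1 lowered at step 3. Quantile normalization gave 0 SOX genes lowered at step 2 and 2 blood factors raised at step 1. Rescaling to an equal sum gave 4 and 0 SOX genes at step 2, 3 linked targets lowered at step 3 and 1 regulator raised at step 1. Rescaling over protein-coding genes gave 5 SOX genes lowered at step 3, 4 linked targets raised at step 1, 1 regulator lowered at step 1 and 2 at step 2, and 3 blood factors raised at step 1 and 2 lowered at step 3. Replicates 2 and 3 alone gave 1 and 0 SOX genes lowered at steps 1 and 2, and 1 regulator and 2 blood factors raised at step 1. Without single libraries, SOX genes lowered ranged from 1 to 3 at step 1 (1 without any H1 replicate) and from 0 to 1 at step 2 (0 without APLNR+ replicate 1 or CD31+CD34+ replicate 3), regulators raised at step 1 from 1 to 2 (1 without any APLNR+ replicate) and blood factors raised at step 1 from 1 to 2 (2 without H1 replicate 1). The cause of these moves was not tested, apart from the fewer genes or libraries that a filter or an omission leaves.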
